A study of Mus musculus with 8 samples.

Results

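Transcript levels of 39 nucleolar genes of ribosome production were followed in progenitor cells sorted from mouse hindlimb muscle. The genes were the rows of the deposited count table that carry the symbols of Myc, RNA polymerase I and its regulators, the proteins of the small nucleolar ribonucleoproteins (snoRNPs), nucleolar phosphoproteins, and factors that build the small and the large ribosomal subunit. All 39 symbols were among the 24419 rows of the table. All 39 also passed the filter on low counts, which left 13646 genes for testing. The lowest count of a member in any library was 87 reads, for Polr1e, and the highest was 16680 reads, for Myc.

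The sorted cells were fibroadipogenic progenitors, resident mesenchymal cells of muscle with the capacity to form fibroblasts and fat cells. They came from male C57BL/6J mice and were gated as SCA-1+ and Hoechst+ cells that lacked CD31, CD45, α7-integrin and propidium iodide. The sham group (n = 2 libraries) had sham surgery and received no tumour cells. In the scrambled group (n = 3), KPCY cells, a mouse pancreatic cancer line, had been transduced with a lentiviral vector for a scrambled sequence and injected into the pancreas. In the knockdown group (n = 3), the injected KPCY cells carried a lentiviral vector that inhibits the microRNA miR-27a-3p. Both tumour groups shared the parental line, the transduction and the selection with puromycin. The inhibitor was in the tumour cells and not in the progenitors, and 1 tumour line underlies both groups. The labels call the libraries biological replicates and give no ages, tumour sizes, collection days or batches, so the p-values measure the spread between these libraries. Total counts ran from 15647436 reads in sham library 1 to 28340450 reads in scrambled library 1. Scrambled library 1 also had the lowest scaling factor, 0.902, beside 0.98 to 1.03 in the other libraries.

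The nucleolus forms around ribosomal DNA, where RNA polymerase I makes one long precursor of the 18S, 5.8S and 28S rRNAs. Box C/D snoRNPs then methylate this precursor, box H/ACA snoRNPs convert uridines to pseudouridine, and a large set of assembly factors folds and trims it into both subunits. MYC is a transcription factor known to raise the expression of many of these genes, and their output follows growth and cell activation in many tissues.

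Some libraries stood apart from the rest of their group. Over all genes, the first principal component took 61.1% of the variance and placed scrambled libraries 1 and 3 at 115 and 92.0, scrambled library 2 at -12.3, and the 5 sham and knockdown libraries between -47.7 and -32.3. The main calls that rest on the scrambled group are therefore also given without scrambled library 2 and with it as the sole scrambled library. So are the medians of the members and of their roles in scrambled against sham, and those of several other lists. The remaining list medians are from all 8 libraries only. The sham libraries differed too. Of the 39 members, 34 (87.2%) were higher in sham library 1 than in sham library 2, by a median of 0.33 on the log2 scale, against 48.9% of all genes tested. The summed level of 10 markers of fibroadipogenic progenitors was between 76230 and 106900 CPM (read counts relative to the scaled library size) in every library, lowest in scrambled library 3. None of the 10 was called in any comparison of all 8 libraries, yet in scrambled against sham 7 were negative and the median log2 difference was -0.94. Of the 10, 5 had scrambled below sham without overlap and 1 above, beside 20.8% and 20.2% of all genes. For knockdown against scrambled 7 of the 10 were positive, with a median of 1.05. Without scrambled library 2, edgeR called 7 of the 10 lower and 1 higher in scrambled against sham, beside 25.6% and 25.4% of all genes. The median was then -1.54, beside a median of -0.13 with scrambled library 2 as the sole scrambled library. The part of this marker difference in the member values was not tested.

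The gene that passed the test was Myc itself. Its level was 190.8 and 156.3 CPM in the sham libraries, 653.5, 380.2 and 655.1 CPM in scrambled libraries 1, 2 and 3, and 300.2, 329.8 and 303.1 CPM in the knockdown libraries. The 3 groups did not overlap, with the knockdown libraries between the others. Myc rose 3.24-fold in scrambled against sham, a log2 change of 1.70 ± 0.27 (SE; 95% interval 1.10 to 2.3), with an adjusted p of 0.0264 in edgeR's quasi-likelihood test with Benjamini-Hochberg adjustment over all 13646 genes. It was higher in 3 of 3 scrambled libraries. Over the other settings and left-out libraries the adjusted p ran from 1.77e-07 to 0.247, and the direction was the same in each.

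How far the Myc call held depended on which libraries entered the fit. Without scrambled library 2 the log2 change was 1.92, and with scrambled library 2 as the sole scrambled library it was 1.14, both past the threshold in edgeR's quasi-likelihood test. The call was lost without sham library 1 (adjusted p = 0.247 in edgeR) or sham library 2 (adjusted p = 0.246). It was also lost without scrambled library 1 (0.0562 in edgeR) or 3 (0.0747), and without knockdown library 1, 2 or 3 (adjusted p of 0.0712, 0.0717 and 0.0711). With only the sham and scrambled libraries in the edgeR fit, the adjusted p was 0.198.

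In knockdown against scrambled, the Myc level differed by -0.86 ± 0.23 on the log2 scale and did not pass the test (adjusted p = 0.0728 in edgeR; 4.37e-05 to 0.437 over the other settings). In knockdown against sham, the difference was 0.84 ± 0.26 (95% interval 0.26 to 1.42; adjusted p = 1 in edgeR). That difference passed in 3 other edgeR fits, namely with only those 2 groups (adjusted p = 0.0111), without scrambled library 2 (0.0393) and without scrambled libraries 1 and 3 (0.0107). The range over all settings was 0.0107 to 1. These comparisons share their libraries, so the values stand side by side and do not support each other. Myc lies on chromosome 15 from 61985391 to 61990374 on the plus strand (mm10). Per kilobase of exon it was the highest of the 39 members, at 137 CPM per kb over all libraries.

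**Figure D1:**
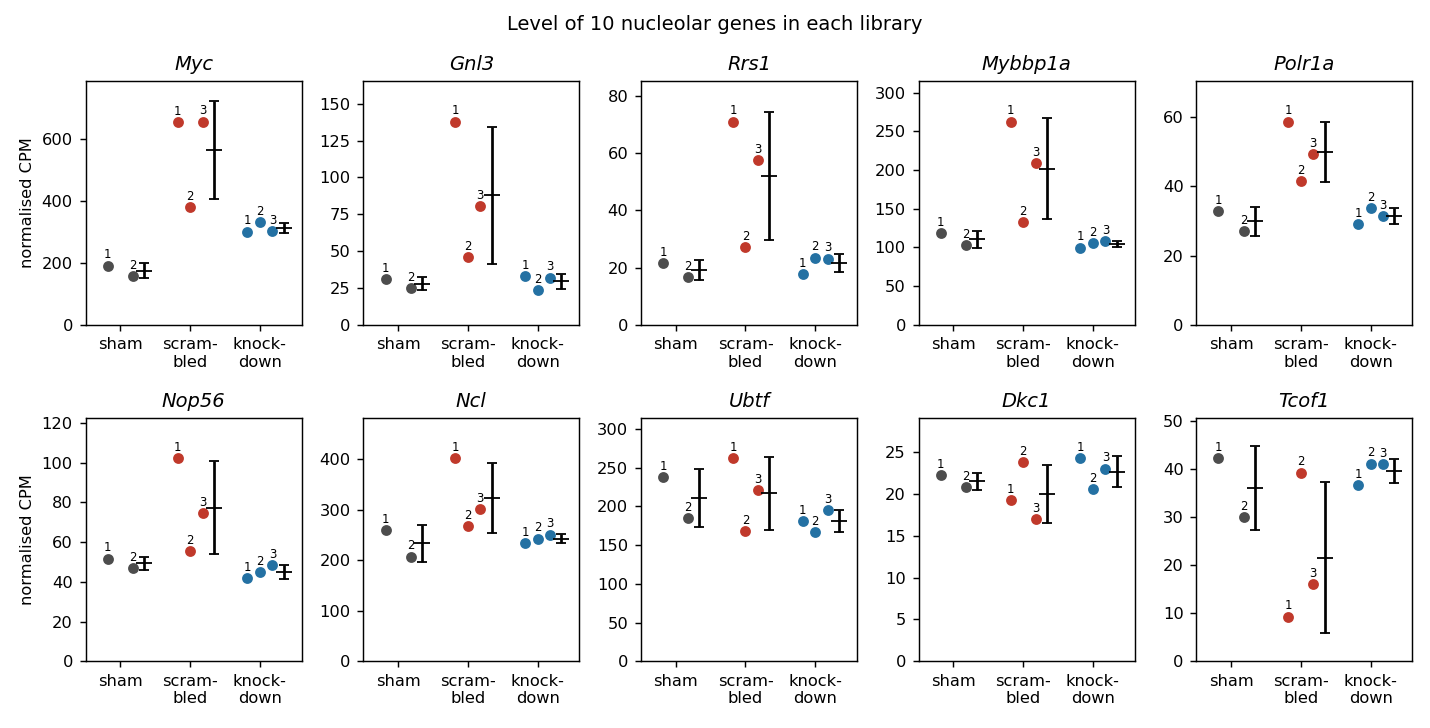
Level of 10 nucleolar genes in each library, in normalised CPM on a linear axis from 0. Points are libraries, numbered by replicate, and the bar beside each group is its mean with the SD. Myc is the gene whose 3 groups are separate, scrambled library 2 lies below scrambled libraries 1 and 3 for Myc, Gnl3, Rrs1 and Mybbp1a, and Tcof1 is lowest in scrambled libraries 1 and 3.

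Promoter sequences of 3 members are shown because MYC binds the E-box CACGTG, which is its own reverse complement, and because these members had large and small differences between the groups. RefSeq (GRCm38.p6) sequences from 250 bases before to 50 bases after a start site were matched for 32 of the 39 members by symbol. Each is written 5′ to 3′ on the gene's strand in lower case, with the E-box in capitals. Mybbp1a is on the plus strand at chr11:72441077-72441376, and its E-box spans bases 41 to 46, counted from the first transcribed base as 1. Ltv1 is on the minus strand at chr10:13193088-13193387, with the E-box at bases 29 to 34. Gnl3, on the minus strand at chr14:31019082-31019381, had no such letters in this window and was chosen after its values were seen, for its large difference.
Mybbp1a: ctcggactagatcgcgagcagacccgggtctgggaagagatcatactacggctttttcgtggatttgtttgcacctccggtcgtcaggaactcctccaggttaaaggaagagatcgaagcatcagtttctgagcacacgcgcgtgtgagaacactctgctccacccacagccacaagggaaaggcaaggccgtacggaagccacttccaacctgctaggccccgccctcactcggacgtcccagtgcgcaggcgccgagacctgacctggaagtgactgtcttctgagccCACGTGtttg
Ltv1: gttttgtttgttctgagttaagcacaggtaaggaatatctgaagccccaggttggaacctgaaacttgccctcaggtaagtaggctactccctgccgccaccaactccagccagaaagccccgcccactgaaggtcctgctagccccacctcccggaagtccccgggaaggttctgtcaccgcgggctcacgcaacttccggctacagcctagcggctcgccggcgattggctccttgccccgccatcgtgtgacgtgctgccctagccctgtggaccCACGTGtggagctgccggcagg
Gnl3: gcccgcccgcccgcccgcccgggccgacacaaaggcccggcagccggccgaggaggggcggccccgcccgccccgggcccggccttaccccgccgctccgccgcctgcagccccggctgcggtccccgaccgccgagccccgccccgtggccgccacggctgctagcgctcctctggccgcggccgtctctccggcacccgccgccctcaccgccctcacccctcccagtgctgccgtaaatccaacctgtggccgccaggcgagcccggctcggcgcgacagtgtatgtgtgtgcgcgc

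The E-box was in the window of 6 of the 32 matched members (18.8%), namely Rrn3, Mybbp1a, Wdr43, Ltv1, Pes1 and Nop2. Counted by gene in the same way, it was in a window of 8.09% of all 27025 genes with a promoter and of 11.5% of the 10304 tested genes with one. Counted by promoter, it was in 15% of the 40 member promoters and in 7.15% of all 32851 promoters of this length. The members with the E-box had a median log2 difference of 0.49 in scrambled against sham, and the 26 without it had 0.56. The same medians were 0.64 and 0.71 without scrambled library 2, and 0.23 and 0.16 with it as the sole scrambled library. Of the promoters printed above, Mybbp1a with the E-box had a difference of 0.87, Ltv1 with it had -0.14, and Gnl3 without it had 1.66. Presence of these letters is a description of the window and not of binding.

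In scrambled against sham, Myc was the 1 member called higher and no member was called lower. Over all genes, 1.1% were called higher and 0.476% lower. The direction was more one-sided than the calls: 33 of 39 members had a positive log2 difference, against 50.1% of all genes. The median over the members was 0.55, from -0.74 to 1.70, and the median over all genes tested was 0.0018. At an unadjusted p under 0.05, 14 members were higher and 0 lower, beside 16.7% and 12.5% of all genes. The groups did not overlap for 20 members, all higher in scrambled, and for 20.2% of all genes in that direction and 20.8% in the other. DESeq2 called 7 members higher, namely Myc, Polr1a, Mybbp1a, Heatr1, Rrp1b, Rrs1 and Gnl3, where it called 9.68% of all genes higher and 5.52% lower.

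**Figure D2:**
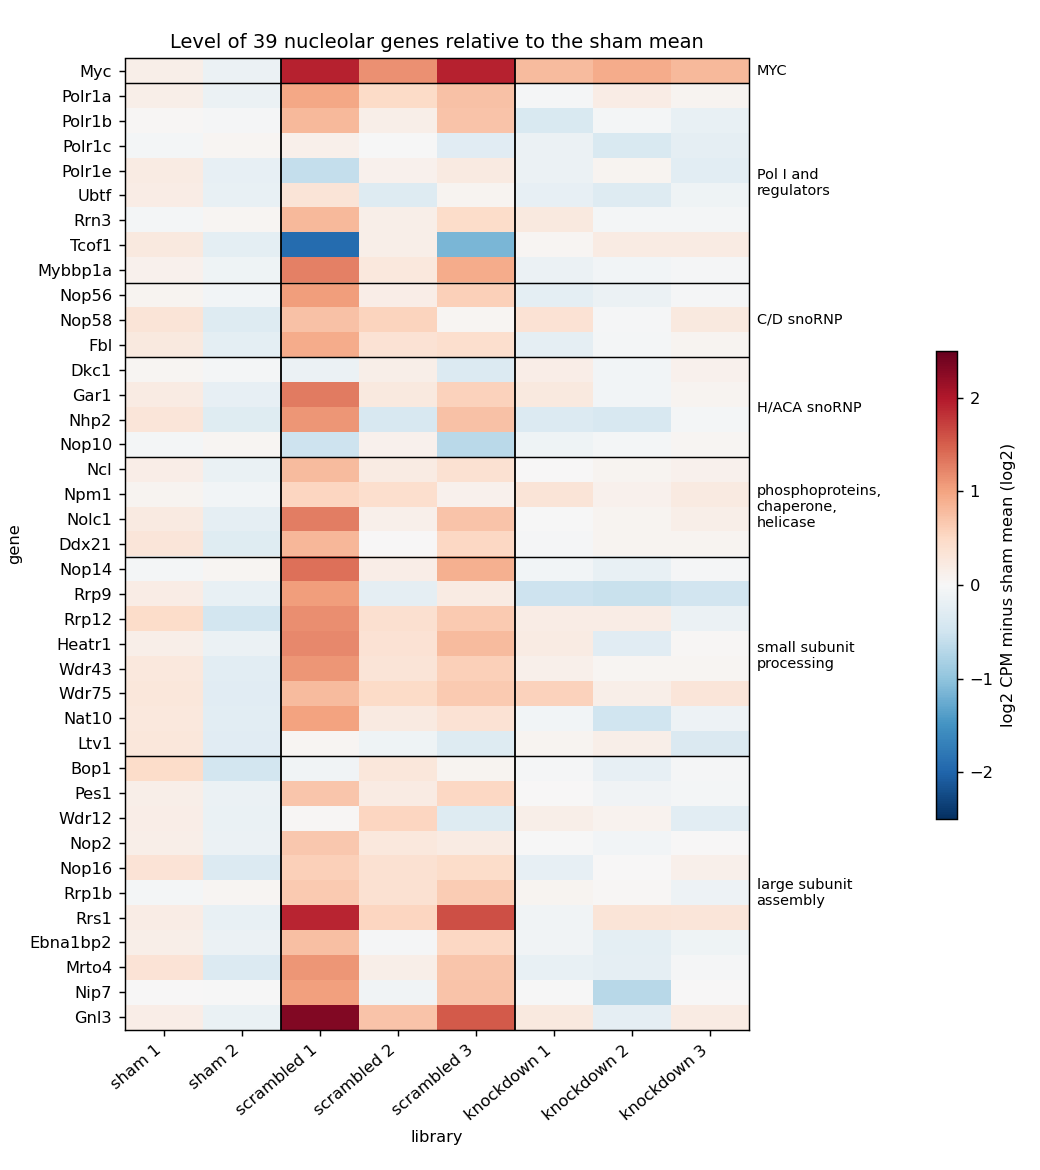
Level of the 39 members in each of the 8 libraries, as log2 CPM minus the sham mean (colour, blue lower and red higher), with genes in rows by role and libraries in columns by group. Scrambled library 1 is the highest of the 8 libraries for 31 of 39 members. Tcof1, Nop10 and Dkc1 are below the sham mean in scrambled libraries 1 and 3.

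Of the 8 members that belong to RNA polymerase I or regulate it, 5 had a positive difference in scrambled against sham and none passed the test, with a median of 0.27. Polr1a, the largest subunit of the polymerase, was at 32.9 and 27.01 CPM in sham, 58.7, 41.4 and 49.3 CPM in scrambled and 29.1, 33.8 and 31.4 CPM in knockdown. All 3 scrambled libraries were above the other 5, and the log2 difference from sham was 0.74 ± 0.21 (adjusted p = 0.0824 in edgeR). Polr1b, the second largest subunit, was at 22.9 and 21.8 CPM in sham and at 39.3, 24.9 and 36.7 CPM in scrambled. Here too the groups did not overlap.

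Polr1c, a subunit shared by polymerases I and III, overlapped between the groups, at 32.0 and 34.2 CPM in sham and 36.2, 32.8 and 27.02 CPM in scrambled. Polr1e, another polymerase I subunit, was the lowest member in CPM, between 3.68 and 6.55 CPM in every library. Ubtf encodes UBF, which holds ribosomal DNA in an open, active form. Its level was 237.6 and 184.9 CPM in sham, 262.1, 168.2 and 221.0 CPM in scrambled, and 181.2, 166.5 and 194.9 CPM in knockdown. The difference in scrambled against sham was 0.040 ± 0.22 (95% interval -0.46 to 0.53), and it became -0.039 with upper quartile scaling and -0.058 with library totals. Rrn3, the factor that links the polymerase to its promoter complex, was at 24.8 and 26.7 CPM in sham and 45.4, 28.4 and 35.3 CPM in scrambled, with no overlap.

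Mybbp1a, a nucleolar MYB-binding protein that takes part in rRNA synthesis and processing, had the largest difference of this group. It was at 118 and 102.7 CPM in sham, 262.4, 132.8 and 208.9 CPM in scrambled, and 99.7, 105 and 108.2 CPM in knockdown. Scrambled against sham gave 0.87 ± 0.27 (adjusted p = 0.0971 in edgeR) and knockdown against scrambled -0.95 ± 0.23 (adjusted p = 0.0727 in edgeR). Tcof1 ran the other way and was named after its values were seen. It encodes treacle, a nucleolar scaffold that brings UBF and the polymerase together. Its level was 42.3 and 30.0 CPM in sham, 9.33, 39.4 and 16.1 CPM in scrambled, and 36.8, 41.2 and 41.2 CPM in knockdown. Scrambled libraries 1 and 3 lay below every other library, while scrambled library 2 lay between the sham libraries. The log2 difference in scrambled against sham was -0.74 ± 0.48, and with scrambled library 2 as the sole scrambled library it was 0.13.

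The box C/D snoRNP carries the methyltransferase fibrillarin (Fbl) with its partners Nop56 and Nop58. All 3 members had a positive difference in scrambled against sham, with a median of 0.58, and none passed the test. Nop56 was at 51.7 and 46.9 CPM in sham, 102.1, 55.6 and 74.4 CPM in scrambled and 41.8, 44.7 and 48.5 CPM in knockdown, with the scrambled libraries above all others. Its difference was 0.65 ± 0.25 against sham. Fbl was at 21.3 and 15.01 CPM in sham and 34.2, 22.9 and 24.1 CPM in scrambled, also without overlap. Nop58 had the smallest difference of the 3, at 0.44 ± 0.27, and its groups overlapped.

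The box H/ACA snoRNP is built around the pseudouridine synthase dyskerin (Dkc1) with Gar1, Nhp2 and Nop10, and 2 of these 4 members had a positive difference in scrambled against sham. Gar1 was at 10.7 and 7.92 CPM in sham, 22.7, 10.95 and 13.8 CPM in scrambled and 10.9, 8.76 and 9.71 CPM in knockdown, a difference of 0.77 ± 0.34 in scrambled against sham. Nhp2 was at 18.8 and 12.4 CPM in sham and at 33.0, 11.5 and 25.5 CPM in scrambled, so that scrambled library 2 lay below both sham libraries. Dkc1, the enzyme, was at 22.2 and 20.8 CPM in sham and at 19.3, 23.8 and 17 CPM in scrambled, a difference of -0.10 ± 0.21. Nop10, named after its values were seen, had a similar order of libraries. It was at 21.7 and 23.0 CPM in sham, 15.6, 24.1 and 13.9 CPM in scrambled and 20.6, 21.6 and 23.2 CPM in knockdown, a difference of -0.32 ± 0.25. For Dkc1 and Nop10, scrambled library 2 alone gave differences of the other sign, 0.15 and 0.11. None of the 4 passed the test.

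Nucleolin (Ncl) and nucleophosmin (Npm1) are the abundant multifunctional proteins of the nucleolus, Nolc1 is a chaperone of snoRNPs, and Ddx21 is an RNA helicase that acts in rRNA synthesis and processing. All 4 had a positive difference in scrambled against sham, with a median of 0.47, and none passed the test. Ncl was at 259.3 and 207.4 CPM in sham, 401.5, 268.1 and 300.6 CPM in scrambled and 233.3, 242.9 and 250.6 CPM in knockdown. Npm1 differed from the usual order of the scrambled libraries, since library 3 was the lowest: it was at 136.3 and 125.7 CPM in sham, 190.8, 175.8 and 141.7 CPM in scrambled and 163.4, 140.8 and 152.1 CPM in knockdown. Its differences were 0.37 ± 0.18 in scrambled against sham and 0.22 ± 0.18 in knockdown against sham. Nolc1 had the largest difference of the 4, at 0.77 ± 0.31, with 60.2 and 44.1 CPM in sham and 125.8, 56.4 and 84.6 CPM in scrambled. Scrambled library 2 lay between the sham libraries for Nolc1.

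Small subunit processing was represented by 8 members that act in the early processome or on the 18S side of the precursor. Of these, 7 had a positive difference in scrambled against sham, with a median of 0.66, and none passed the test. Nop14, a core factor of 18S maturation, had the largest difference, 0.89 ± 0.31. It was at 33.2 and 35.9 CPM in sham, 89.5, 38.5 and 64.4 CPM in scrambled and 33.0, 30.3 and 33.98 CPM in knockdown. Scrambled library 2 exceeded the higher sham library only slightly. Heatr1, a scaffold of the processome, was at 30.7 and 25 CPM in sham, 64.2, 35.8 and 48.2 CPM in scrambled and 32.1, 22.9 and 28.1 CPM in knockdown, a difference of 0.83 ± 0.27 (adjusted p = 0.106 in edgeR). The scrambled libraries were again above all others. Wdr43 and Wdr75, subunits of the processome, also had scrambled libraries above both sham libraries. Rrp9, Rrp12 and the acetyltransferase gene Nat10 had overlapping groups, because sham library 1 reached or passed the lowest scrambled library. Ltv1, which acts in late cytoplasmic maturation of the small subunit, had the smallest difference, -0.14 ± 0.25, at 28.5 and 19.2 CPM in sham and 24.3, 21.8 and 18.7 CPM in scrambled.

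All 11 members of large subunit assembly had a positive difference in scrambled against sham, with a median of 0.48. None of the 11 passed the edgeR test, 4 were higher at an unadjusted p under 0.05, and 6 had scrambled above sham without overlap, beside 16.7% and 20.2% of all genes. Gnl3 encodes nucleostemin, a nucleolar GTP-binding protein known from proliferating stem cells. It was at 30.9 and 24.8 CPM in sham, 137.9, 45.7 and 80.6 CPM in scrambled and 33.0, 23.7 and 32.0 CPM in knockdown. The scrambled libraries were the 3 highest of the 8, and scrambled library 1 was far above the rest. The log2 difference was 1.66 ± 0.41 in scrambled against sham (3.17-fold; adjusted p = 0.0703 in edgeR, 0.000127 to 0.406 over the other settings).

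Rrs1, which brings 5S rRNA and its proteins into the large subunit, had the scrambled libraries in the same order as Gnl3. It was at 21.5 and 16.6 CPM in sham, 71.1, 27.3 and 57.7 CPM in scrambled and 17.8, 23.5 and 23.2 CPM in knockdown. Its difference from sham was 1.45 ± 0.38 (2.74-fold; adjusted p = 0.0755 in edgeR). Rrp1b, a nucleolar protein of large subunit maturation, had a smaller difference with little spread. It was at 18.6 and 20.0 CPM in sham, 30.3, 25.2 and 30.1 CPM in scrambled and 20.3, 19.8 and 17.6 CPM in knockdown, a difference of 0.56 ± 0.19 (adjusted p = 0.112 in edgeR). The PeBoW complex, needed for 28S and 5.8S maturation, is made of Pes1, Bop1 and Wdr12. Pes1 was at 50.2 and 41.4 CPM in sham and 73.9, 52.7 and 64.9 CPM in scrambled, without overlap. Bop1 was at 34.2 and 18.1 CPM in sham and 23.4, 30.1 and 26.1 CPM in scrambled, so all 3 scrambled libraries lay between the sham libraries. Its difference was 0.024 ± 0.27 and turned to -0.037 with upper quartile scaling and -0.057 with library totals. Wdr12 was between 7.43 and 13.4 CPM in every library and was highest in scrambled library 2. Nop2 and Nop16 had scrambled libraries above both sham libraries, and Ebna1bp2, Mrto4 and Nip7 overlapped with sham.

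**Figure D3:**
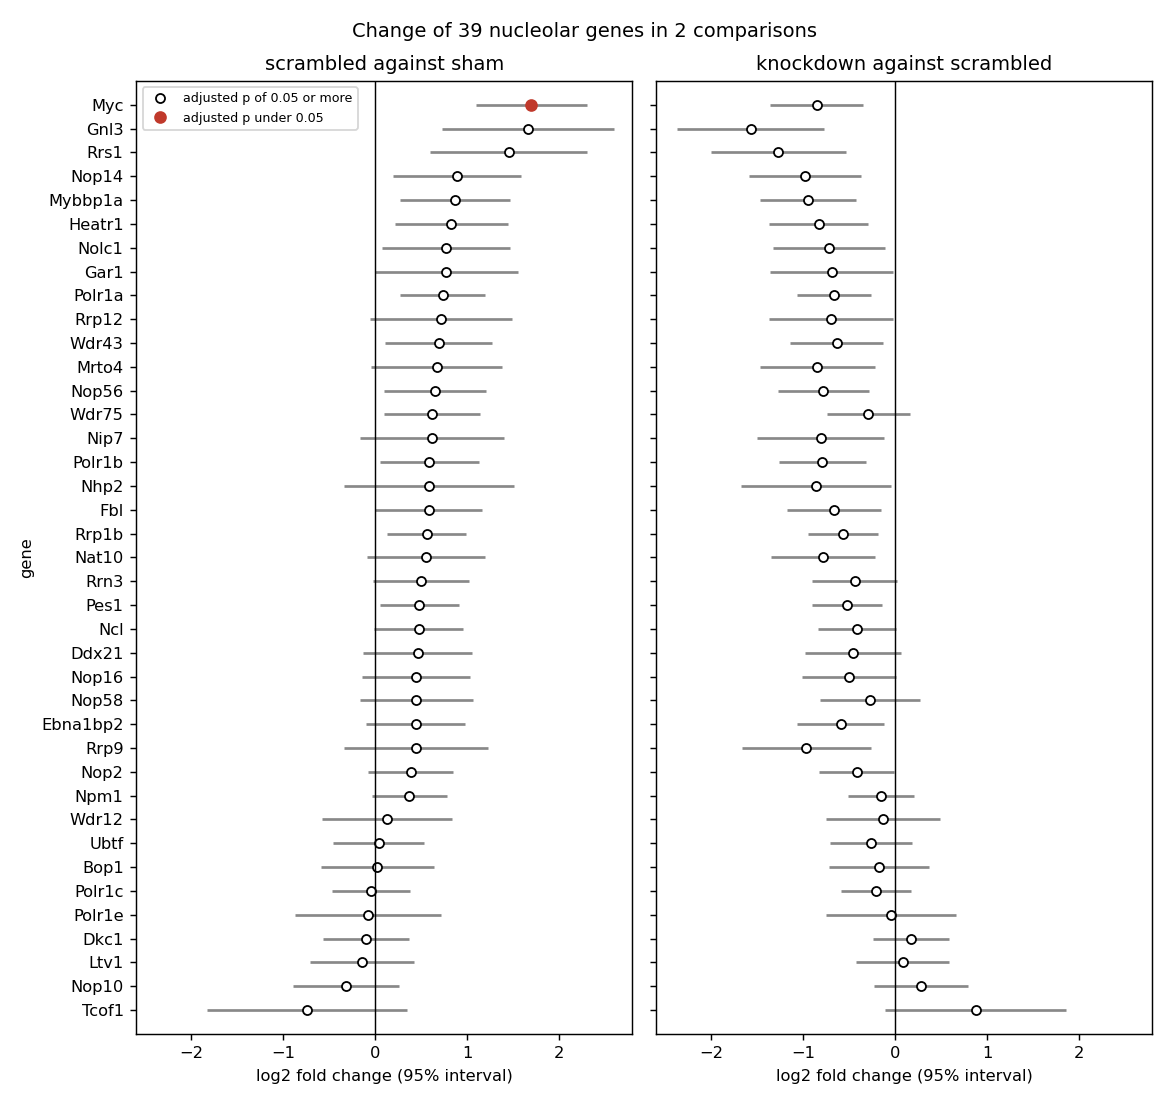
Log2 difference of each of the 39 members with its 95% interval, in scrambled against sham (left) and knockdown against scrambled (right), ordered by the left panel. A filled point has an adjusted p under 0.05 in edgeR: Myc in the left panel and none in the right. The panels share the scrambled libraries.

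The order of the scrambled libraries was alike across most members. Scrambled library 1 was above library 3 for 35 of 39 members (89.7%), against 50% of all genes. Scrambled library 2 was the lowest of the 3 for 28 members (71.8%; 39.4% of all genes) and the highest for 5 (12.8%; 42.6% of all genes). In scrambled library 1, 32 members were above every sham and knockdown library, beside 38.3% of all genes. The same held for 29 members in library 3, beside 36.8%, and for 21 in library 2, beside 21.9%. Relative to the sham mean, the median member was at 0.82, 0.21 and 0.53 on the log2 scale in scrambled libraries 1, 2 and 3. It was between -0.055 and 0.0082 in the knockdown libraries.

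Without scrambled library 2, edgeR called 26 members (66.7%) higher and 2 members (5.13%) lower in scrambled against sham, beside 25.4% and 25.6% of all genes tested. The 2 that fell were Tcof1, by 1.54 on the log2 scale, and Nop10, by 0.59. Among those that rose were Gnl3 by 1.99, Rrs1 by 1.77, Nop14 by 1.17, Mybbp1a by 1.10 and Polr1a by 0.86. The 11 members not called in this fit were Polr1c, Polr1e, Ubtf, Nop58, Dkc1, Npm1, Ltv1, Bop1, Wdr12, Nop2 and Nop16. With scrambled library 2 as the sole scrambled library, Myc was called higher and no other member passed, beside 2.21% of all genes called higher and 1.34% lower. The median over members was then 0.21, and 31 of 39 were positive. In this last fit the single library was taken to vary like those of the other groups. By role, the medians without library 2 and with it alone were 0.43 and 0.13 for polymerase I and its regulators. They were 0.71 and 0.34 for box C/D proteins and 0.35 and 0.13 for box H/ACA proteins. For the phosphoproteins, chaperone and helicase they were 0.63 and 0.16. Small subunit processing had 0.79 and 0.26, and large subunit assembly 0.65 and 0.26.

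**Figure D4:**
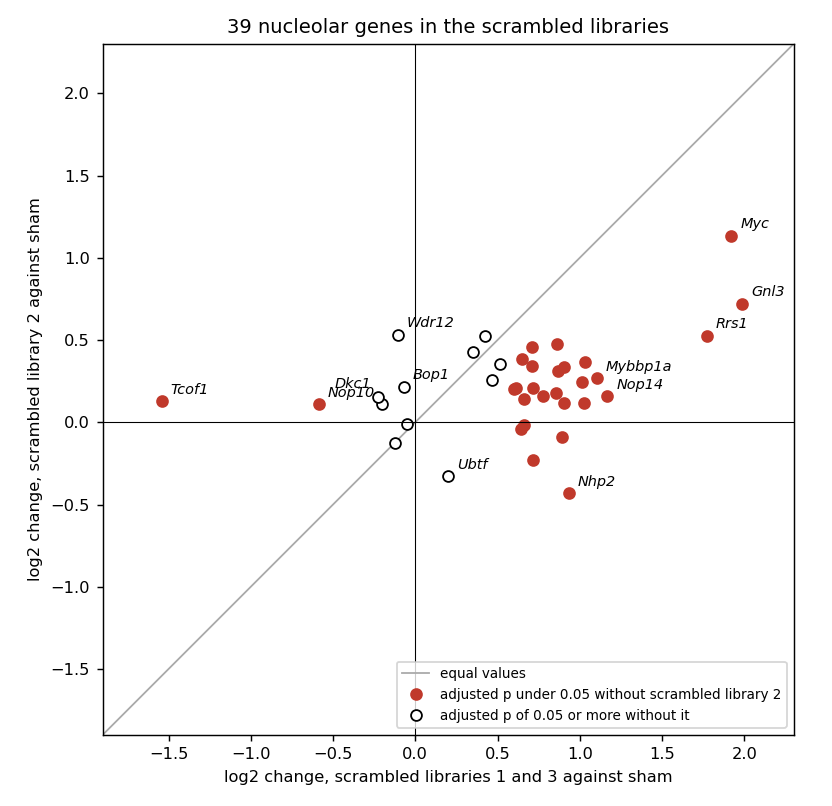
Log2 difference from sham of the 39 members in scrambled libraries 1 and 3 (horizontal) and in scrambled library 2 (vertical), with the line of equal values. Filled points are the 28 members with an adjusted p under 0.05 without scrambled library 2. Most of the filled points lie below the line, Myc is furthest up at 1.14, and Tcof1 and Nop10 are the filled points to the left of 0. Open points to the left of 0 are Dkc1, Polr1e, Ltv1, Wdr12, Bop1 and Polr1c.

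In knockdown against scrambled, no member passed the edgeR test in either direction, where 0.00733% of all genes were called higher and 0.044% lower. The lowest adjusted p of a member was 0.0716, for Gnl3. The unadjusted p was under 0.05 for 23 members, all lower in knockdown, beside 18.6% of all genes lower and 13.9% higher. DESeq2 called 14 members lower and 0 higher, beside 11.2% and 5.8% of all genes. The groups did not overlap for 22 members, all lower, beside 16.7% of all genes lower and 17.5% higher. The median difference was -0.60, from -1.58 for Gnl3 to 0.88 for Tcof1, and 35 of 39 members were negative, where 50.8% of all genes were positive.

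The scrambled libraries are those of the comparison with sham, so the values below are not a second line of evidence. Gnl3 differed by -1.58 ± 0.36, Rrs1 by -1.27 ± 0.32 (adjusted p = 0.0727 in edgeR) and Nop14 by -0.98 ± 0.27. Ncl differed by -0.42 ± 0.19 and Ubtf by -0.26 ± 0.20. The 4 members with a positive value were Tcof1 (0.88 ± 0.44), Nop10 (0.28 ± 0.23), Dkc1 (0.17 ± 0.19) and Ltv1 (0.081 ± 0.22). By role, the median was -0.35 for polymerase I and its regulators, -0.67 for box C/D proteins, -0.26 for box H/ACA proteins, -0.44 for the phosphoproteins, chaperone and helicase, -0.74 for small subunit processing and -0.57 for large subunit assembly. Without scrambled library 2, 28 members (71.8%) fell and 2, Tcof1 and Nop10, rose in edgeR, beside 26.6% and 27.3% of all genes. With library 2 as the sole scrambled library none was called, the median was -0.26, and 0.194% of all genes were called higher and 0.525% lower.

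In knockdown against sham, edgeR called no member, as did DESeq2 and limma-voom, and 0.00733% of all genes were called higher and 0% lower. Myc alone had an unadjusted p under 0.05, higher in knockdown, as 1.67% of all genes had in that direction and 0.696% in the other. The median over members was -0.030, from -0.53 to 0.84, with 16 of 39 positive, beside 49.8% of all genes. The groups did not overlap for 5 members. Myc and Npm1 were higher and Polr1b, Polr1c and Rrp9 lower in knockdown, beside 13.8% and 13.5% of all genes. Rrp9, a protein bound to the U3 snoRNA, was at 23.2 and 17.9 CPM in sham, 42.3, 17.4 and 23.5 CPM in scrambled and 14.3, 13.8 and 14.5 CPM in knockdown. An adjusted p of 1 does not show that the 2 groups were alike: the 95% interval for Myc excluded 0 before adjustment. The spread within groups was unequal. The median coefficient of variation over members was 16.5% in sham, 28.1% in scrambled and 7.65% in knockdown, against 11.8%, 30.7% and 10.9% over all genes.

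The rest of the pathway was read from lists of 187 tested genes. In scrambled against sham, 1 of the 187, Ctps, was called higher and 0 lower, beside 1.1% and 0.476% of all genes, 133 were positive and the median was 0.35. The factors closest in role to the members had medians close to theirs: 0.46 over 48 other small subunit processing factors, of which 43 were positive, and 0.45 over 53 other large subunit assembly factors, of which 44 were positive. Medians were nearer to 0 for the 9 other polymerase I subunits and factors (0.12), the 11 other snoRNP proteins (0.048), the 14 subunits and cofactors of the nuclear exosome (0.097) and the 22 genes of RNA polymerase III (-0.034). In knockdown against scrambled none of the 187 was called by edgeR, 73 were lower and 6 higher at an unadjusted p under 0.05, DESeq2 called 41 lower and 1 higher, and the median was -0.35. Over all genes, 18.6% were lower and 13.9% higher at that unadjusted p, and DESeq2 called 11.2% lower and 5.8% higher. Without scrambled library 2, edgeR called 90 of the 187 higher and 18 lower in scrambled against sham, beside 25.4% and 25.6% of all genes, and the median was 0.47. With library 2 as the sole scrambled library the median was 0.12. The 2 medians in the same order were 0.60 and 0.19 for the other small subunit factors and 0.58 and 0.16 for the other large subunit factors. Between knockdown and scrambled, 96 of the 187 were called lower and 15 higher in edgeR without library 2, beside 26.6% and 27.3% of all genes. The median was then -0.46, and it was -0.12 with library 2 as the sole scrambled library.

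Some genes of these lists had values like those of Gnl3 and Nop14, and others went the other way. Las1l, an endonuclease subunit that cuts the second internal spacer, was at 33.97 and 37.3 CPM in sham, 118.1, 49.9 and 94.9 CPM in scrambled and 39.7, 37.8 and 39.5 CPM in knockdown, a difference of 1.30 ± 0.32 in scrambled against sham. Noc4l, a small subunit factor and partner of Nop14, differed by 1.17 ± 0.29, and Utp20, a large processome scaffold, by 0.88 ± 0.22. Taf1d, a part of the polymerase I promoter factor, was at 12.9 and 12.6 CPM in sham and 58.8, 22.7 and 34.6 CPM in scrambled, a difference of 1.61 ± 0.38. Gltscr2, which takes part in placing the 5S particle, differed by 0.92 ± 0.25. None of these 5 passed the edgeR test, with adjusted p between 0.0646 and 0.0794. All 5 were higher in scrambled, while 54 of the 187 had a negative difference. Lower in scrambled were, among the genes with the smallest p of their lists, Polr3b (-0.72 ± 0.21) and Mphosph6 (-0.60 ± 0.21).

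Ctps makes CTP for RNA synthesis and belonged to the list of nucleotide and polyamine supply, whose 18 tested genes had a median of -0.14. It was at 21.6 and 17.6 CPM in sham, 52.4, 46.6 and 42.8 CPM in scrambled and 31.8, 21.9 and 25.1 CPM in knockdown. All 3 scrambled libraries, library 2 included, were above the other 5. Ctps rose 2.42-fold, a log2 change of 1.27 ± 0.22, in scrambled against sham (adjusted p = 0.0368 in edgeR, 2.17e-05 to 0.271 over the other settings). The change was 1.30 without scrambled library 2 and 1.26 with it as the sole scrambled library, past the threshold in both fits. The edgeR call was lost when any 1 of the other 7 libraries was left out. Of the 18 genes of this list, 7 were positive and 11 negative. Umps, of the same list, was at 34.2 and 23.2 CPM in sham, 6.43, 19.5 and 11.7 CPM in scrambled and 26.6, 30.2 and 27.4 CPM in knockdown. Its difference in scrambled against sham was -1.19 ± 0.39 (adjusted p = 0.106 in edgeR). Among 12 other genes of the wider MYC and MAX network, a list that pools partners and antagonists of MYC, none was called. Their median was 0.81, which became 1.07 without scrambled library 2 and 0.050 with it as the sole scrambled library. Mlxip, a glucose-responsive member of the wider MYC and MAX network, was at 80.5 and 88.4 CPM in sham, 601.9, 122.9 and 479.5 CPM in scrambled and 89.9, 110.7 and 98.9 CPM in knockdown. Its difference was 2.25 ± 0.55 (adjusted p = 0.0688 in edgeR).

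Many snoRNAs are cut from introns of other genes, so host genes link the members to the guides of the snoRNPs. By the GENCODE annotation, 6 members (Ncl, Nop56, Wdr43, Gnl3, Dkc1 and Nop58) host 19 snoRNAs. Their median difference in scrambled against sham was 0.56, and that of the 33 members that host none was 0.55. Non-coding hosts had larger values. Of 13 such genes 12 were positive, beside 50.1% of all genes, with a median of 1.04. Snhg8 was the 1 called higher, beside 1.1% of all genes. Snhg8 was at 24.9 and 28.2 CPM in sham, 58.5, 46.2 and 59.4 CPM in scrambled and 29.5, 29.8 and 31.5 CPM in knockdown. It rose 2.06-fold, by 1.04 ± 0.19 on the log2 scale (adjusted p = 0.0375 in edgeR, 4.01e-05 to 0.368 over the other settings). The change was 1.15 without scrambled library 2 and 0.80 with it as the sole scrambled library, past the threshold in both, and its call too was lost when any 1 of the other 7 libraries was left out. The medians of the 13 hosts in those 2 fits were 1.15 and 0.55. Without scrambled library 2, edgeR called 11 of them higher and 1 lower, beside 25.4% and 25.6% of all genes. The libraries hold polyadenylated RNA, so the snoRNAs themselves and rRNA were not measured.

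The scrambled libraries had another order for the genes of the ribosomal proteins, which the assembly factors join to rRNA. All 34 were positive in scrambled against sham, with a median of 0.49, none was called by edgeR, 24 were higher at an unadjusted p under 0.05 and DESeq2 called 17 higher, beside 16.7% and 9.68% of all genes. In scrambled libraries 1, 2 and 3 their median was at 0.63, 0.49 and 0.33 above the sham mean, so that library 2 was not the lowest as it was for the members. The median was the same to 2 decimals without library 2 and with it as the sole scrambled library, where edgeR called 24 and 4 of them higher, beside 25.4% and 2.21% of all genes. In knockdown against scrambled the median was -0.49 and none was called by edgeR, and without library 2 the median was -0.50 and 30 were called lower, beside 26.6% of all genes.

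**Figure D5:**
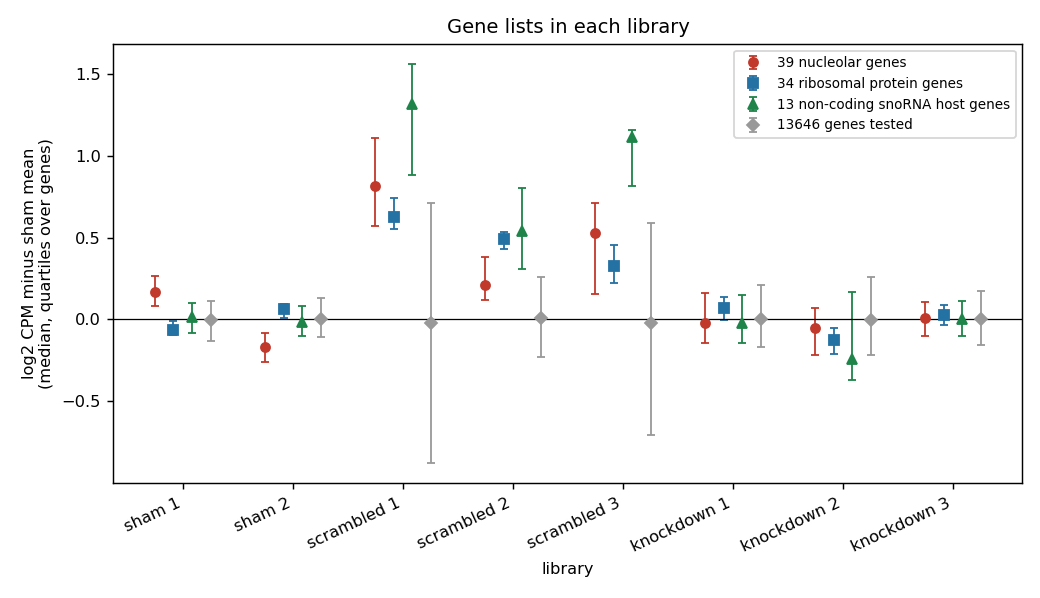
Median (points) and quartiles (bars) of log2 CPM minus the sham mean in each library, for the 39 members, 34 ribosomal protein genes, 13 non-coding snoRNA host genes and all 13646 genes tested. The members are at 0.82, 0.21 and 0.53 in scrambled libraries 1, 2 and 3, the ribosomal protein genes at 0.63, 0.49 and 0.33, and both are near 0 in the knockdown libraries.

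Some other measures differed between groups, not all of them in the scrambled libraries alone. The summed level of 24 proliferation genes was 161.8 and 150.2 CPM in sham, 339.2, 198.4 and 310.0 CPM in scrambled and 162.2 to 178.7 CPM in knockdown. None of the 21 tested was called with all 8 libraries, and the median in scrambled against sham was 0.67. Without scrambled library 2, edgeR called 7 of the 21 higher and 2 lower, beside 25.4% and 25.6% of all genes. The median was then 0.73, and it was 0.072 with library 2 as the sole scrambled library. The 11 muscle fibre markers summed to 35.7 and 74.2 CPM in sham, 87.5, 99.1 and 312.5 CPM in scrambled and 53.1 to 66.0 CPM in knockdown. Mature adipocyte markers summed to at most 0.725 CPM in sham, 2.58 to 11.5 CPM in scrambled and 0.719 to 4.02 CPM in knockdown, with Lep at 0 in all libraries. Schwann cell markers summed to 38.3 and 39.9 CPM in sham, 99.1, 56.8 and 88.4 CPM in scrambled and 68.3 to 74.4 CPM in knockdown. The 7 pericyte markers summed to 154.8 and 187.2 CPM in sham, 124, 207 and 220.3 CPM in scrambled and 188.3 to 235.4 CPM in knockdown. Their median difference in scrambled against sham was 1.11. At an unadjusted p under 0.05 in edgeR, 5 of 7 were higher and 1 lower, beside 16.7% and 12.5% of all genes. In knockdown against sham the median was 1.04. There 6 of the 7 had knockdown above sham without overlap and 1 below, beside 13.8% and 13.5% of all genes. In knockdown against scrambled the median was -0.16. Tenocyte markers had a median difference of -1.22 in scrambled against sham. Their sums overlapped, at 710.6 and 1159 CPM in sham, 669.8 to 930.4 CPM in scrambled and 711 to 1432 CPM in knockdown.

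Red blood cell markers summed to 0.506 and 1.67 CPM in sham, 6.93, 4.52 and 18.01 CPM in scrambled and 1.17 to 3.94 CPM in knockdown. This came from the erythroid gene Alas2 (log2 difference 3.09 ± 0.84 in scrambled against sham), since the 4 globin genes were at 0 in every library. Lymphocyte markers summed to at most 0.569 CPM. The 8 macrophage markers summed to 19.2 and 15.6 CPM in sham, 38.95, 20.6 and 23.3 CPM in scrambled and 13.3 to 47.1 CPM in knockdown. In knockdown against scrambled 6 of the 8 were positive, with a median of 0.89, beside 50.8% of all genes. In knockdown against sham 7 were positive, with a median of 1.18, beside 49.8% of all genes. No tested marker of the other cell types was called in scrambled against sham with all 8 libraries. Only 0 of 8 lymphocyte, 1 of 5 red cell, 3 of 7 muscle stem cell, 3 of 7 epithelial, 4 of 7 neutrophil and 5 of 7 adipocyte markers passed the filter on low counts, so the rest of these could not be called. Endothelial markers summed to 526.7 and 511.5 CPM in sham, 467.7, 400.4 and 396.7 CPM in scrambled and 491.1 to 578.4 CPM in knockdown. Their sum was thus lowest in scrambled, while 6 of the 8 had a positive difference in scrambled against sham (median 0.43). That median was 0.79 without scrambled library 2 and -0.25 with it as the sole scrambled library. In scrambled against sham without library 2, edgeR called 4 of 8 endothelial, 3 of 11 muscle fibre, 3 of 7 pericyte and 3 of 7 Schwann cell markers higher. So were 2 of 3 tested adipocyte, 1 of 1 red cell and 1 of 8 macrophage markers. Called lower were 3 of 7 tenocyte markers and 1 endothelial, 1 pericyte and 1 Schwann cell marker. Of 2 muscle stem cell and 3 epithelial markers tested in this fit, 1 of each type was called in each direction, and no neutrophil marker was called. Over all genes it was 25.4% and 25.6%. Epithelial markers summed to 5.63 and 4.35 CPM in sham, 19.3, 7.35 and 4.41 CPM in scrambled and 5.24 to 8.32 CPM in knockdown. Neutrophil markers summed to 3.04 and 0.0558 CPM in sham, 10.5, 6.09 and 2.90 CPM in scrambled and 2.49 to 4.88 CPM in knockdown. The part of proliferation and of RNA from these other cell types in the member values was not tested. In bulk libraries, fewer cells of a type and less RNA per cell cannot be told apart.

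Between genes, levels were compared per kilobase of exon (GENCODE M21, mm10). After Myc came Npm1 at 57.5, Ubtf at 30.8, Ncl at 26.6 and Mybbp1a at 24.5 CPM per kb, and the lowest were Polr1e at 1.39 and Wdr12 at 0.805. Ubtf, among the highest, and Wdr12, the lowest, both overlapped between sham and scrambled. Mybbp1a lies on chromosome 11 from 72441355 to 72451768 (plus strand), Gnl3 on chromosome 14 from 31012433 to 31019152 (minus), Rrs1 on chromosome 1 from 9545408 to 9547455 (plus) in 1 exon, and Polr1a on chromosome 6 from 71909053 to 71984935 (plus). Exons of Mybbp1a overlap those of Spns2 on the other strand by 131 bases, and those of Gnl3 overlap Pbrm1 by 15 bases. The strand used in counting is not given in the sources used here, so reads in such overlaps cannot be assigned with certainty. Mrto4 has 2 annotated pseudogenes, which could share its reads.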

How the data were processed

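The 8 libraries were analysed from 1 table of raw counts that the authors deposited, in which every cell is a whole number of reads for a gene symbol and a library. The submitters' processing notes list mm10 as the genome build and name R (4.2.1), DESeq2 (1.36.0), STAR, Bowtie and bcl2fastq (2.20). They do not say what each tool did. How reads were assigned to genes, with which annotation and strand, is not given in these sources. Of the 24419 rows, 6786 were 0 in every library.

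The main analysis used edgeR 4.0.16 under R 4.3.3. The filter was filterByExpr with a minimum count of 10 and a minimum total of 15, scaling was by TMM, and CPM values are on that scale. A robust quasi-likelihood fit gave 3 group means over all 8 libraries, so the groups share 1 estimate of dispersion. P-values are two-sided, with Benjamini-Hochberg adjustment over 13646 genes and a threshold of 0.05. Log2 values carry SEs, the absolute log2 change over the square root of F. Counting error covers reads, not molecules. Alternatives were DESeq2 1.42.0, limma-voom (limma 3.58.1), the legacy edgeR fit, other scalings and filters, a fit of only the groups compared, a replicate block, and leaving out libraries. Sequences came from RefSeq (GRCm38.p6) and gene positions from GENCODE M21.

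The members, lists and alternatives were chosen with earlier results of these data known. By rule, values are given for Myc, every member called, the members with the largest and the smallest absolute difference in each role, the 5 members with the highest CPM and, of each other list, up to 3 genes with the smallest p, of which a part is printed. Named after their values were seen were Polr1a, Polr1b, Polr1c, Polr1e, Rrn3, Tcof1, Fbl, Nhp2, Nop10, Heatr1, Rrp9, Pes1, Wdr12, Rrs1 and Rrp1b.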

Additional observations from a re-analysis of the deposited data

How the results depend on the processing

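With scrambled against sham, 215 genes were called. The count was 2074 with DESeq2, 133 with the legacy fit, 4 with only the groups compared, 16 with the replicate block and 493 with scrambled library 2 alone, and 0 to 6908 when 1 library was left out. Members called numbered 1, and 7 with DESeq2, 0 with only the groups compared or the block, and 0 to 28 with 1 library left out. Other pathway genes called numbered 1, and 25, 0, 0, 2 (scrambled library 2 alone) and 0 to 108 under the same settings. The members' median of 0.55 became 0.21 with scrambled library 2 alone and 0.31 to 0.72 with 1 library left out. In knockdown against scrambled, 7 genes were called, and 1 with upper quartile scaling, library totals, a minimum count of 50 or the legacy fit, 11 without a filter, 2320 with DESeq2, 0 with only the groups compared or the block, 100 with scrambled library 2 alone and 0 to 7313 with 1 library left out. Members called were 0, and 14 with DESeq2 and 0 to 30 with 1 library left out; pathway genes 0, 42 and 0 to 111. The median of -0.60 became -0.26 and -0.79 to -0.41. In knockdown against sham, 1 gene was called, and 2 with upper quartile scaling, library totals or no filter, 25 with DESeq2, 101 with only the groups compared, 0 with the block, 103 without scrambled libraries 1 and 3 and 0 to 32 with 1 library left out. Members called were 0, and 1 (Myc) with only the groups compared or without scrambled libraries 1 and 3, and 0 to 1 with 1 library left out; pathway genes were 0, then 1 and 1 under the first 2 of these and 0 to 0 with 1 library left out. The median was -0.18 to 0.17 with 1 library left out. Library totals moved the median of all genes to -0.09 in scrambled against sham and to 0.11 in knockdown against scrambled. Small differences changed sign. In scrambled against sham, Ubtf became -0.039 (upper quartile), -0.058 (library totals), -0.0067 (replicate block) and -0.33 (scrambled library 2 alone), Bop1 -0.037 and -0.057 (the first 2 of these), and with scrambled library 2 alone Dkc1 became 0.15, Tcof1 0.13 and Nop10 0.11. In knockdown against scrambled with library 2 alone, Ubtf became 0.10, Dkc1 -0.076 and Nop10 -0.15. In knockdown against sham with the block, Ltv1 became 0.075. With 1 library left out, scrambled against sham ran from -0.14 to 0.23 for Ubtf, -0.23 to 0.0060 for Dkc1, -0.41 to 0.17 for Ltv1 and -0.38 to 0.55 for Bop1, and knockdown against scrambled from -0.016 to 0.23 for Ltv1. Knockdown against sham ran from -0.18 to 0.020 for Mybbp1a, -0.13 to 0.53 for Nop58, -0.13 to 0.30 for Gar1, -0.10 to 0.22 for Ncl, -0.16 to 0.29 for Nolc1, -0.32 to 0.25 for Ltv1, -0.55 to 0.37 for Bop1 and -0.063 to 0.25 for Gnl3. The causes were not tested. Deviations of same-numbered libraries correlated at -0.0643 to 0.172, and those of differently numbered libraries at -0.149 to 0.0683. The deviations of the 2 sham libraries mirror each other, so these values cannot settle whether the numbers pair the libraries. With 2 sham libraries, a left-out sham library leaves 1, which is assumed to vary like the other groups.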
